A study of Mus musculus with 10 samples.

Results

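The data described here are the transcript levels of 32 macrophage and leukocyte genes in pancreatic islets, compared between floxed control (FL) mice and mice with deletion of FIT2 in β cells (βFIT2KO, KO). The genes were found by symbol in the deposited table of 47340 genes. All 32 were present, in 33 rows, because Itgam had a second row that was listed at 0 in all 10 libraries and was not used. The FL mice (n = 5) were homozygous for the floxed FIT2 allele (FIT2 fl/fl) and carried no Cre, and their labels give "Flox" in the title and "wild type" as the genotype. The KO mice (n = 5) had the same floxed alleles and in addition the Ins2-cre transgene (25Mgn), in which the rat insulin promoter drives Cre recombinase. All mice were male, 12 weeks old and fed chow, and each gave 1 library of polyadenylated RNA from islets that were isolated with collagenase and left to recover overnight. Cre is directed to β cells in this model, whereas the genes described here were listed as genes of macrophages and other leukocytes. The RNA is from whole islets, so which cells each transcript came from was not tested. Islets carrying the transgene without floxed alleles were not analysed here, so an effect of Cre itself and an effect of FIT2 loss cannot be told apart.

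Islets hold a small population of resident macrophages that sit close to capillaries and take up material released by the endocrine cells. Macrophages depend on the receptor CSF1R and on the transcription factor PU.1, clear debris through Fc receptors, complement and scavenger receptors, degrade it in lysosomes, and present peptides on MHC class II. When activated they release cytokines such as interleukin-1β and TNF, and interleukin-1β is known in islets for impairing β cell function. The genes are described below by these roles. Levels are given in FPKM, the fragments of a gene corrected for its exon length and for the size of the library, so that levels can be compared between genes. Differences are KO minus FL in log2(FPKM + 1), a scale on which low genes appear to change less than they do.

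Of the 32 genes, 26 averaged 1 FPKM or more in FL or in KO and entered the test, which was fitted with limma over 13065 genes (Benjamini-Hochberg adjusted p at most 0.05). Ccr2, Itgam, Mrc1, Cd86, Ptprc and Tnf stayed below that level. Of the tested genes, only Cx3cr1 passed through its KO mean alone. The libraries differed in depth, estimated from the spacing of the lowest values, by up to 2.41 times (FL1 the shallowest, FL5 the deepest, KO libraries from 1.51 to 2.05 times FL1), so depth overlapped between the groups. The targeted gene, Fitm2, ranged from 15.5 to 37.1 FPKM in FL and from 4.30 to 9.13 FPKM in KO without overlap. As for the tissue, the β cell genes Slc2a2 (245 FPKM in FL) and Glp1r (561 FPKM) and the hormones Sst (4976 FPKM) and Ppy (9916 FPKM) were abundant, whereas Ins1, Ins2, Gcg and Iapp were listed at 0 in all 10 libraries. A value of 0 in this table is therefore given only as listed.

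The tested genes that differed were higher in KO islets, with the exception of Il1b. Of the 26 tested genes, 14 (53.8%) were higher in KO, where 9.05% of all tested genes were. Il1b alone was lower, where 16.5% of all tested genes were. The other 11 did not pass (adjusted p from 0.0511 to 0.886), and 6 of these had an unadjusted p under 0.05. The KO and FL libraries did not overlap, with KO above FL, for 10 of the tested genes (6.67% of all tested genes), and with KO below FL for Il1b (12.5% of all tested genes). The median difference was 0.36 over the 26 genes and −0.06 over all tested genes. It was above 0 in 25 of the 26 and in 4977 of all 13065. The KO to FL ratio of the 14 higher genes ranged from 1.19 for Ms4a7 to 1.88 for Lyz2. In bulk RNA, more macrophages per islet and more RNA of these genes per macrophage cannot be told apart. Fibroblast and pericyte markers were higher as well, and when each library was scaled to them, 13 of the 14 higher genes turned below 0, whereas 13 of the 14 stayed above 0 when each library was scaled to its endothelial markers.

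**Figure D1:**
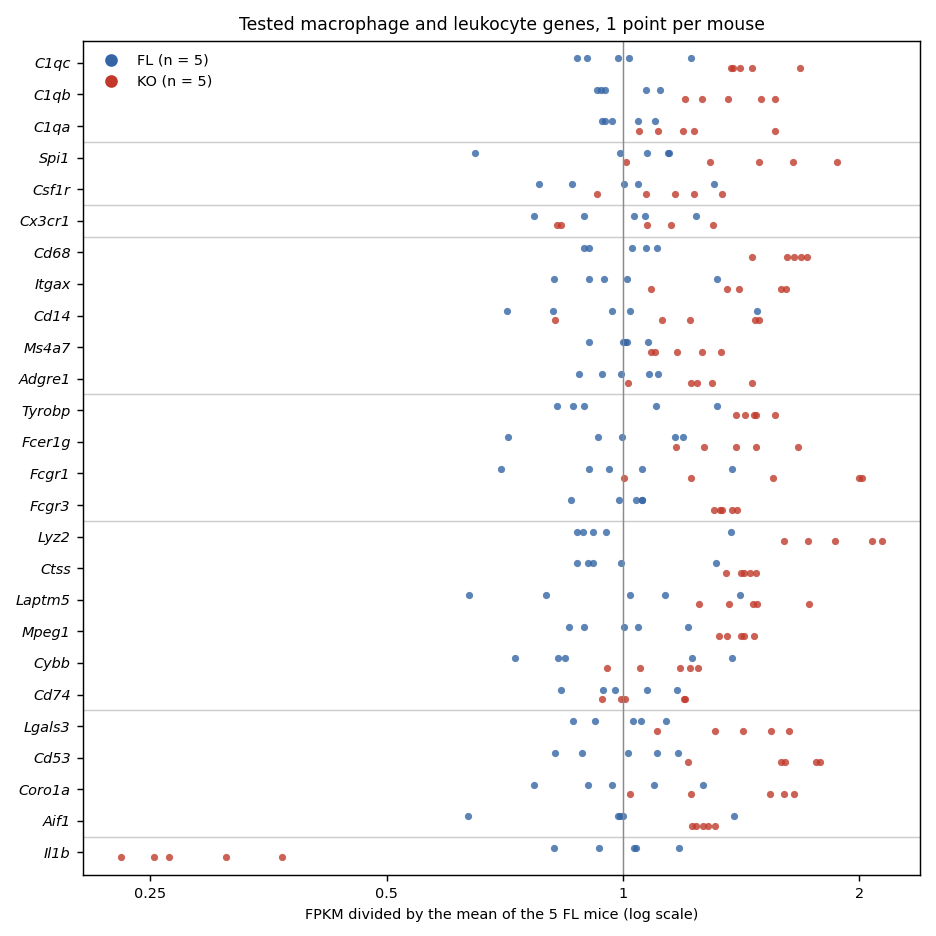
FPKM of each of the 26 tested genes in each mouse, divided by the mean of the 5 FL mice, on a log scale (blue, FL; red, KO; grey lines separate the roles). The KO mean is above the FL mean for 25 of the 26 genes, and all red points lie to the right of every blue one for 10. The 5 KO points of Il1b lie far to the left.

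The promoters of 5 of these genes are shown because the genes carry the clearest differences described below, and because Spi1, which encodes PU.1, is itself among the 32. Promoters (250 bases before to 50 after the start, RefSeq, GRCm38.p6) were matched by symbol for 24 of the 32 genes. C1qa, Tyrobp, Spi1, Adgre1, Csf1r, Cd14, Cd74 and Cd86 had no entry. The letters GAGGAAG, a core recognized by PU.1, occurred on either strand in 9 of the 24 (37.5%): C1qc, Cd53, Ctss, Fcgr1, Fcgr3, Itgam, Laptm5, Mrc1 and Tnf. They occurred in 15.4% of all 27025 genes with a promoter of this length. No other motif was searched. Each sequence below runs from 220 bases before to 30 after the start, 5′ to 3′ on the strand of the gene, with any GAGGAAG or its reverse complement in capitals.
C1qc, chr4:136892885-136893134, minus strand: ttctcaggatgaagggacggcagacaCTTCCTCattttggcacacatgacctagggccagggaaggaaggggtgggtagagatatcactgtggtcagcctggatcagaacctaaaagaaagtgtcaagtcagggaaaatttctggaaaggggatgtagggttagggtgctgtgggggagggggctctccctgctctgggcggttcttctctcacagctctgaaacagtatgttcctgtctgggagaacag
Ctss, chr3:95526566-95526815, plus strand: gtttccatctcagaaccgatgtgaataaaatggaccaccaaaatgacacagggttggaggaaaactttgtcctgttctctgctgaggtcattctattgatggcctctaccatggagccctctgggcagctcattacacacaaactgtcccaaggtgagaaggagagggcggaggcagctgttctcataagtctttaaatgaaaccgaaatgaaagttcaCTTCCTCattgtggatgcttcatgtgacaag
Lyz2, chr10:117282243-117282492, minus strand: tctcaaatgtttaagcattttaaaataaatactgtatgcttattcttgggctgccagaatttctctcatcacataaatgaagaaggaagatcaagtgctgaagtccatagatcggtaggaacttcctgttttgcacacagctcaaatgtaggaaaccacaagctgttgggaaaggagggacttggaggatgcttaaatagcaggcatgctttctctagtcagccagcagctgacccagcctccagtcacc
Cd68, chr11:69666141-69666390, minus strand: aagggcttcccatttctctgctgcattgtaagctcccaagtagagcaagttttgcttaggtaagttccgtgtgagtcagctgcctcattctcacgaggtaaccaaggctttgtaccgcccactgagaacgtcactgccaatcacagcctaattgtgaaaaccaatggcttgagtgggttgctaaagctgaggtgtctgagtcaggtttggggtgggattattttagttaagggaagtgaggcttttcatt
Il1b, chr2:129371110-129371359, minus strand: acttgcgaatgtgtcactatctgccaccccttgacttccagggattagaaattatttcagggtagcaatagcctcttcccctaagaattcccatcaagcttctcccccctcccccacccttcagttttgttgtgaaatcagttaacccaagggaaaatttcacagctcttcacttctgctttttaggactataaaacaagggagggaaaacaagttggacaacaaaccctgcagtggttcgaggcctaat
The match begins 194 bases before the start in C1qc and 1 base before it in Ctss. Lyz2, Cd68 and Il1b hold no match in these windows, and the matches are descriptions of sequence, not of binding.

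The complement genes C1qa, C1qb and C1qc encode the chains of C1q, the recognition part of the classical complement pathway that macrophages make themselves. They lie side by side on the minus strand of chromosome 4 (GRCm38, GENCODE M21), C1qb at 136880129 to 136886187, C1qc at 136889804 to 136893065 and C1qa at 136895917 to 136898803. C1qc was at 9.35, 8.28, 11.6, 9.66 and 8.52 FPKM in the FL mice and at 13.1, 13.8, 13.4, 13.0 and 15.9 FPKM in the KO mice. Every KO mouse was above every FL mouse, and the means were 9.48 ± 1.30 and 13.9 ± 1.21 FPKM (SD, n = 5), a difference of 0.51 (SE 0.0865, adjusted p = 0.00181 from limma). C1qb was at 12.5, 14.1, 14.7, 12.3 and 12.4 FPKM in FL and at 15.9, 19.8, 16.7, 18.0 and 20.6 FPKM in KO, again without overlap (difference 0.43, SE 0.0800, adjusted p = 0.00295 from limma). C1qa, which with Cd74 was the most abundant of the genes per length, was at 72.4, 70.2, 70.8, 78.1 and 82.1 FPKM in FL and at 82.8, 117, 89.2, 78.4 and 92.0 FPKM in KO. The groups overlapped through KO4, and the difference of 0.28 (SE 0.0975) missed the threshold (adjusted p = 0.0550 from limma). It passed without KO4 (adjusted p = 0.0357 from limma), after median-ratio rescaling (0.0180), quantile normalization (0.0172) or rescaling to the same sum (0.0421). C1qc rose 1.46-fold, C1qb 1.38-fold, and the KO to FL ratio of C1qa was 1.23. Without KO5, the KO mouse with the highest C1qc, the difference in C1qc was 0.46 (adjusted p = 0.00424 from limma).

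**Figure D2:**
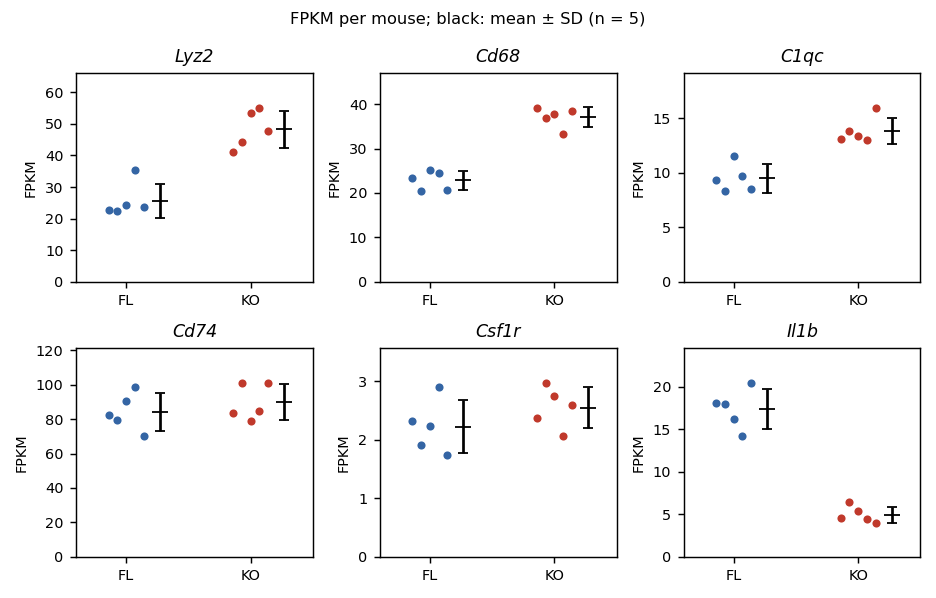
FPKM of 6 genes in each mouse (blue, FL1 to FL5 from left to right; red, KO1 to KO5), with black bars for the mean ± SD (n = 5). Lyz2, Cd68 and C1qc are higher in every KO mouse than in any FL mouse, Il1b is lower in every KO mouse, and Cd74 and Csf1r overlap.

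Of the genes that define the lineage, neither Csf1r nor Spi1 passed the test. Csf1r encodes the receptor for CSF1 and interleukin-34 on which macrophages depend, and was at 2.32, 1.92, 2.23, 2.91 and 1.74 FPKM in FL and at 2.38, 2.97, 2.74, 2.06 and 2.59 FPKM in KO. The groups overlapped, and the difference was 0.14 (SE 0.108, adjusted p = 0.366 from limma). Spi1, which encodes PU.1, ranged from 1.10 to 1.93 FPKM in FL and from 1.70 to 3.16 FPKM in KO (difference 0.36, SE 0.133, adjusted p = 0.0685 from limma). It passed without KO2 (adjusted p = 0.0244 from limma) or with sample weights (0.0379). Of the chemokine receptors, Cx3cr1, the fractalkine receptor of resident macrophages, averaged 0.997 ± 0.177 FPKM in the FL mice against 1.03 ± 0.207 FPKM in the KO mice (SD, n = 5), a difference of 0.02 (adjusted p = 0.886 from limma). The annotated Cx3cr1 locus overlaps Csrnp1, Gorasp1 and Xirp1 on the same strand. Ccr2, the receptor of monocytes recruited from blood, was at most 0.0754 FPKM in any library and was listed at 0 in FL1, which is an estimated 0 to 16 reads per library.

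Among surface markers, Cd68, a glycoprotein of macrophage endosomes and lysosomes, stood out. Cd68 was at 23.4, 20.4, 25.2, 24.4 and 20.7 FPKM in the FL mice and at 39.1, 37.0, 37.7, 33.4 and 38.5 FPKM in the KO mice. The lowest KO mouse was well above the highest FL mouse, and the means of 22.8 ± 2.2 and 37.1 ± 2.27 FPKM (SD, n = 5) differed 1.63-fold (difference 0.68, SE 0.0701, adjusted p = 5.99e-05 from limma). Ms4a7, a tetraspan protein of tissue macrophages, ranged from 6.38 to 7.60 FPKM in FL and from 7.66 to 9.41 FPKM in KO, so that the groups touched without overlapping (difference 0.22, adjusted p = 0.0293 from limma). The call of Ms4a7 was lost without FL2, FL4, FL5, KO2, KO4 or KO5 (adjusted p from 0.0520 to 0.0648 from limma) and without the filter on low FPKM (0.0561).

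The other surface markers did not pass the test. Itgax, which encodes the integrin CD11c carried by islet macrophages, ranged from 1.05 to 1.69 FPKM in FL and from 1.40 to 2.07 FPKM in KO (difference 0.30, adjusted p = 0.0511 from limma). It passed in 8 of 19 alternative analyses, among them those without FL2 (adjusted p = 0.0263 from limma) and without KO5 (0.0271). Adgre1, which encodes F4/80, was at 1.57 ± 0.150 and 1.96 ± 0.251 FPKM (SD, n = 5; adjusted p = 0.101 from limma). Cd14, a co-receptor for lipopolysaccharide, was at 3.20 ± 0.947 and 3.92 ± 0.888 FPKM (SD, n = 5; adjusted p = 0.332 from limma). These values leave Itgax, Adgre1 and Cd14 with higher KO means and overlapping groups.

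Mrc1, Itgam and Cd86 were below the level at which genes were tested. Mrc1, the mannose receptor CD206, was at 0.107, 0.0370, 0.128, 0.128 and 0.0816 FPKM in FL and at 0.272, 0.230, 0.271, 0.311 and 0.219 FPKM in KO. These values correspond to an estimated 8 to 72 reads per library. Every KO mouse was above every FL mouse (exact two-sided permutation p = 0.00794, the smallest that 5 mice against 5 can give), and the ratio of the means was 2.71. Fitted without a filter on low FPKM, the difference in Mrc1 was 0.20 (adjusted p = 0.00175 from limma). Itgam, the integrin CD11b of monocytes and neutrophils, was at 0.318 ± 0.193 and 0.521 ± 0.0676 FPKM (SD, n = 5), with FL3 at 0.653 FPKM above all KO mice (exact permutation p = 0.0556). Cd86, a costimulatory ligand for T cells, was at 0.454 ± 0.312 and 0.420 ± 0.121 FPKM (SD, n = 5; exact permutation p = 0.929).

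Of the Fc receptors and their signalling adaptors, 3 of 4 rose, where 9.05% of all tested genes did. Tyrobp, which encodes the ITAM adaptor DAP12 used by many myeloid receptors, was at 11.3, 11.8, 15.1, 18.0 and 12.2 FPKM in FL and at 19.6, 20.2, 21.4, 20.1 and 19.1 FPKM in KO. The KO mice lay close together and above all FL mice, with means of 13.7 ± 2.84 and 20.1 ± 0.868 FPKM (SD, n = 5; difference 0.54, SE 0.110, adjusted p = 0.00492 from limma). Fcer1g, the common γ chain of Fc receptors, was at 10.4 ± 2.02 and 14.5 ± 2.01 FPKM (SD, n = 5), with 1 KO mouse inside the FL range (difference 0.45, adjusted p = 0.0265 from limma). Its call was lost without FL2, KO3 or KO5 (adjusted p from 0.0519 to 0.0609 from limma) and without the filter (0.0578). Fcgr3, a low-affinity IgG receptor that signals through this chain, was at 1.78, 1.48, 1.82, 1.82 and 1.70 FPKM in FL and at 2.25, 2.30, 2.40, 2.37 and 2.28 FPKM in KO. The groups did not overlap (difference 0.29, adjusted p = 0.00875 from limma). Fcgr1, the high-affinity IgG receptor, ranged from 0.795 to 1.57 FPKM in FL and from 1.14 to 2.30 FPKM in KO (difference 0.36, adjusted p = 0.0865 from limma), and passed only without KO1 among the 19 alternatives (adjusted p = 0.0418 from limma).

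Among the tested genes, the largest rise was that of Lyz2, the lysozyme of macrophages and granulocytes, which cuts bacterial cell walls. Lyz2 was at 22.8, 22.5, 24.4, 35.2 and 23.5 FPKM in the FL mice and at 41.2, 44.2, 53.4, 55.0 and 47.8 FPKM in the KO mice. FL4 stood above the other FL mice and still below every KO mouse, and the means of 25.7 ± 5.38 and 48.3 ± 5.88 FPKM (SD, n = 5) differed 1.88-fold (difference 0.90, SE 0.125, adjusted p = 0.000490 from limma). Without FL4 the difference in Lyz2 was 1.01 (adjusted p = 3.59e-05 from limma). Lyz1, a close copy of Lyz2, was at most 0.120 FPKM in any library, and how reads were shared between copies is not given in the sources used here.

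Of the other lysosomal and killing genes, Ctss, Mpeg1 and Laptm5 rose and Cybb did not pass. Ctss encodes cathepsin S, which trims the invariant chain during MHC class II loading, and was at 24.5, 24.1, 26.6, 35.1 and 23.4 FPKM in FL and at 38.2, 37.9, 36.2, 39.5 and 38.8 FPKM in KO. FL4 was again the highest FL mouse and close to the KO mice, without overlap (difference 0.51, adjusted p = 0.00325 from limma). Without FL4 the difference in Ctss was 0.61 (adjusted p = 2.83e-05 from limma). Mpeg1, which encodes the pore-forming perforin-2 of phagocytes, ranged from 9.56 to 13.5 FPKM in FL and from 14.9 to 16.4 FPKM in KO, without overlap (difference 0.46, adjusted p = 0.00219 from limma). Laptm5, a lysosomal membrane protein of leukocytes, was at 5.82 ± 1.75 and 8.48 ± 1.02 FPKM (SD, n = 5; difference 0.51, adjusted p = 0.0394 from limma). The groups of Laptm5 overlapped through FL1, and its call was lost without FL2, FL3, FL5, KO1, KO2, KO3 or KO5 (adjusted p from 0.0628 to 0.0841 from limma) and without the filter (0.0849). Cybb, the catalytic subunit of the phagocyte NADPH oxidase, was at 1.30 ± 0.368 and 1.47 ± 0.161 FPKM (SD, n = 5; adjusted p = 0.498 from limma).

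No gene of MHC class II passed the test. Cd74, the invariant chain of MHC class II, was at 82.3, 79.3, 90.4, 98.8 and 70.1 FPKM in FL and at 83.8, 101, 79.1, 84.8 and 101 FPKM in KO. The groups overlapped throughout (difference 0.10, SE 0.0998, adjusted p = 0.522 from limma). Of 7 further genes of MHC class II presentation that were tested, 0 were called by limma in either direction, 0 had an unadjusted p under 0.05, and the median difference was −0.01. With 9.05% of all tested genes higher and 16.5% lower, few calls are to be looked for among so few genes, and Cd83 entered the test through its KO mean alone. The chains H2-Aa (40.5 and 41.1 FPKM in FL and KO islets), H2-Ab1 (26.0 and 25.5 FPKM), H2-Eb1 (28.2 and 26.2 FPKM) and the lysosomal thiol reductase Ifi30 (63.4 and 60.4 FPKM) had close means in the groups, with adjusted p from limma of 0.838, 0.942, 0.493 and 0.468.

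Among the pan-leukocyte and other leukocyte genes, 3 of 4 tested rose (9.05% of all tested genes did), and the call of Coro1a was unstable. Cd53, a tetraspanin of the leukocyte surface, was at 2.04, 1.51, 1.87, 2.17 and 1.64 FPKM in FL and at 3.29, 2.24, 2.97, 3.26 and 2.94 FPKM in KO. KO2 was only just above the highest FL mouse (difference 0.47, SE 0.0989, adjusted p = 0.00623 from limma). Lgals3, which encodes the carbohydrate-binding galectin-3 and is also made by other cell types, was at 30.5 ± 3.30 and 42.8 ± 6.25 FPKM (SD, n = 5; difference 0.47, adjusted p = 0.00882 from limma), with KO3 inside the FL range. Coro1a, an actin regulator of leukocytes, was at 3.69 ± 0.694 and 5.18 ± 1.01 FPKM (SD, n = 5; difference 0.40, adjusted p = 0.0489 from limma) and overlaps Bola2 on the other strand. Its call was lost without FL2, FL3, FL4, FL5, KO2, KO3, KO4 or KO5 (adjusted p from 0.0593 to 0.110 from limma) and in 14 of 19 alternatives in all. Aif1, which encodes the calcium-binding protein IBA1, was at 3.77 ± 0.999 and 4.76 ± 0.131 FPKM (SD, n = 5; adjusted p = 0.110 from limma), with FL3 above all KO mice, and passed without FL3 (adjusted p = 0.0229 from limma). Ptprc, which encodes the pan-leukocyte phosphatase CD45, stayed below the tested level at 0.785 ± 0.198 and 0.982 ± 0.0895 FPKM (SD, n = 5; exact permutation p = 0.0794).

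**Figure D3:**
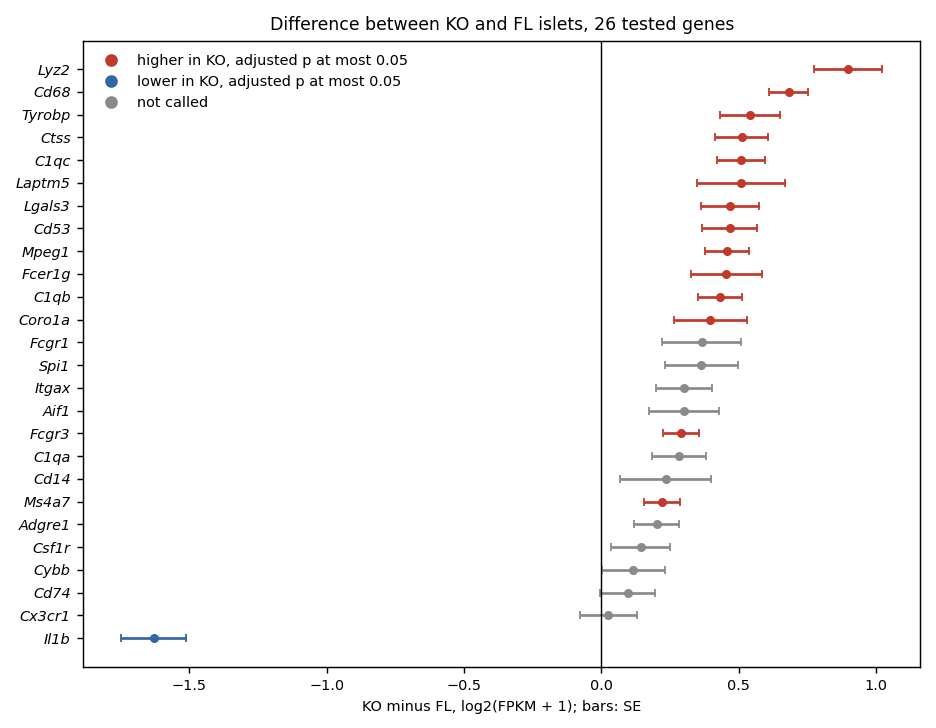
Difference between KO and FL islets for the 26 tested genes, on the log2(FPKM + 1) scale, with bars for the SE (red, higher in KO; blue, lower in KO; grey, not called). The 25 genes other than Il1b range from 0.02 for Cx3cr1 to 0.90 for Lyz2, and Il1b lies at −1.63.

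Il1b, the gene of interleukin-1β, went the other way and by the largest margin. It was at 18.0, 17.9, 16.2, 14.2 and 20.4 FPKM in the FL mice and at 4.58, 6.38, 5.41, 4.38 and 3.98 FPKM in the KO mice. No KO mouse came near the lowest FL mouse, and the mean fell from 17.3 ± 2.34 to 4.95 ± 0.956 FPKM (SD, n = 5), a ratio of 0.285 (difference −1.63, SE 0.118, adjusted p = 4.03e-06 from limma). Over the 19 alternatives the difference ranged from −1.80 to −1.57 and Il1b was called in each. Ratios of Il1b to macrophage genes of the same library are given as a description only, because the groups already differ in Il1b. Which islet cells the Il1b RNA came from was not tested. The ratio of Il1b to Cd68 was 0.580 to 0.988 in FL and 0.103 to 0.173 in KO. The ratio of Il1b to C1qa was 0.181 to 0.255 in FL and 0.0433 to 0.0606 in KO. Il1b is overlapped on the other strand by the antisense gene Il1bos, and although the library kit keeps strand, the strand setting of the authors' counting is not given in the sources used here. Tnf, the other cytokine gene, was at 0.185 ± 0.0383 and 0.209 ± 0.128 FPKM (SD, n = 5), an estimated 6 to 31 reads per library, and its groups overlapped (exact permutation p = 0.825).

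Other genes of the interleukin-1 system were listed after the values of Il1b had been seen. Of 8 that were tested, 3 were lower and 2 higher in KO, where 16.5% and 9.05% of all tested genes were. Il1r1, the signalling receptor, fell from 250 ± 14.7 to 144 ± 8.69 FPKM (SD, n = 5; adjusted p = 3.88e-06 from limma), and Il18, a related cytokine, fell from 5.95 to 4.52 FPKM (adjusted p = 0.00208 from limma). Il1rap, the accessory chain of the receptor, rose from 3.81 to 6.93 FPKM (adjusted p = 0.000726 from limma). Il1rn, the receptor antagonist, was at 2.96 ± 1.74 and 5.78 ± 2.03 FPKM (SD, n = 5; adjusted p = 0.0685 from limma).

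Further macrophage genes that are not among the 32 were examined as lists, whose counts are to be read against the 9.05% of all tested genes that were higher and the 16.5% that were lower. Of 18 other macrophage markers tested, 7 were higher and 1 was lower, with a median difference of 0.27. Pf4, Cd300a and Cyth4 entered the test through their KO mean alone, and Cd300a and Cyth4 are among the 7. Gpnmb, a glycoprotein of lipid-laden and phagocytic macrophages, rose from 4.79 ± 1.48 to 12.7 ± 1.29 FPKM (SD, n = 5; adjusted p = 0.000241 from limma), and the scavenger receptor Msr1 rose from 1.04 ± 0.0280 to 2.02 ± 0.0843 FPKM (SD, n = 5; adjusted p = 0.000159 from limma). Apoe, which is made by many cell types, rose from 126 to 225 FPKM (adjusted p = 0.000268 from limma). Lyve1, a hyaluronan receptor of lymphatic endothelium and of perivascular macrophages, fell from 9.07 ± 1.27 to 4.59 ± 0.552 FPKM (SD, n = 5; adjusted p = 9.55e-05 from limma). In Fc receptor and ITAM signalling, 3 of 12 tested genes were higher (Clec7a, Trem2 and Lyn) and 2 lower (Plcg2 and Blnk), the latter a share close to that of all tested genes, and 5 of the 12 entered through their KO mean alone, none of them called. The β-glucan receptor Clec7a rose 1.74-fold (adjusted p = 0.000885 from limma), Plcg2 fell from 5.42 to 3.97 FPKM (0.00102) and Blnk fell from 3.20 to 2.23 FPKM (0.0106). Sirpa, the most abundant gene of that list, averaged 131 and 120 FPKM (adjusted p = 0.164 from limma). Of 5 tested oxidase subunits, Cyba alone was higher, from 6.86 to 10.2 FPKM (adjusted p = 0.00377 from limma), while Rac1, a GTPase of all cells, averaged 188 FPKM in both groups (adjusted p = 0.996 from limma).

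Genes of signals that recruit or maintain macrophages were called in both directions. Of 12 tested growth factors and chemokines, 4 were higher (Il34, Ccl5, Ccl9 and Cxcl10) and 3 lower (Cxcl16, Cx3cl1 and Mif). Of all tested genes, 9.05% were higher and 16.5% lower, and the lower calls of this list are not far from that share. Ccl9 entered the test through its KO mean alone, as did Ccl7 and Cxcl1, which were not called. Mif, the most abundant of the list, had a KO to FL ratio of 0.619 (adjusted p = 0.0126 from limma). Cxcl16, the ligand of CXCR6, fell from 46.5 ± 2.73 to 23.7 ± 2.54 FPKM (SD, n = 5; adjusted p = 6.61e-06 from limma), and Cx3cl1, the ligand of the Cx3cr1 receptor, fell from 8.02 to 5.80 FPKM (adjusted p = 0.00143 from limma). Cxcl10, a chemokine induced by interferon, rose from 3.21 to 7.65 FPKM (adjusted p = 0.00784 from limma). Of the ligands of the Csf1r receptor, Csf1 averaged 12.5 FPKM in the FL mice against 11.4 FPKM in the KO mice (adjusted p = 0.344 from limma). Il34 rose from 1.51 ± 0.927 to 2.99 ± 0.787 FPKM (SD, n = 5; adjusted p = 0.0391 from limma). The groups of Il34 overlapped, at 0.789 to 3.10 FPKM in FL and 1.70 to 3.82 FPKM in KO.

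Most markers of other leukocytes stayed below the tested level. None of 8 dendritic cell markers and none of 11 neutrophil markers reached the tested level, with sums of 0.568 to 1.01 FPKM and 0.188 to 1.55 FPKM per library, and Zbtb46 and Csf3r, the highest of each list, stayed under 1 FPKM in every library. Xcr1 and Cd209a for dendritic cells and Ly6g, Elane, Cxcr2, Ngp and Retnlg for neutrophils were listed at 0 throughout. Of 16 T and NK cell markers only Lck was tested and did not pass, and Cd3d, Gzma and Ncr1 were listed at 0. Of 9 B cell markers only Cd79a was tested, and it fell from 3.51 to 1.90 FPKM (adjusted p = 0.00962 from limma), while 6 of the 9 had a higher mean in KO. Of 6 mast cell markers, Mcpt4, Tpsb2, Fcer1a and Ms4a2 were listed at 0, and Kit, which other cells also express, was tested and did not pass.

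Among markers of other non-endocrine cells, those of fibroblasts and pericytes and some endothelial ones were higher in KO islets. The counts stand beside 9.05% of all tested genes higher and 16.5% lower. The 32 genes summed to 352 to 426 FPKM in FL libraries and 456 to 523 FPKM in KO libraries, without overlap. Of 12 tested endothelial markers, 6 were higher in KO and 0 lower (median difference 0.30), and the list summed to 241 to 277 FPKM in FL and 269 to 358 FPKM in KO, which overlap through KO3. Cldn5, one of the 6, entered the test through its KO mean alone. All 6 tested fibroblast and pericyte markers were higher (median 0.48), with sums of 19.3 to 28.3 FPKM in FL and 35.9 to 46.2 FPKM in KO. Of the endothelial genes, the cadherin Cdh5 rose 1.31-fold, Cldn5 2.06-fold, Tie1 1.31-fold and Plvap, the most abundant, 1.29-fold (adjusted p from limma 0.00336, 0.0107, 0.0125 and 0.0335). The fibrillar collagen Col3a1 rose 1.91-fold, Pdgfrb 1.49-fold and Dcn 1.84-fold (adjusted p from limma 0.00179, 0.00437 and 0.0140). Acinar markers such as Ctrb1, from exocrine tissue carried along in the isolation, were called in 0 of 10 cases by limma (0 at an unadjusted p under 0.05) and summed to 4041 to 10290 FPKM in FL and 2648 to 19330 FPKM in KO. Of 7 ductal markers, Cftr was higher, having entered through its KO mean alone, and Krt7 lower, shares near those of all tested genes. Of 3 red cell genes, Hbb-bs the highest, 0 were called by limma (1 at an unadjusted p under 0.05), and 2 of the 3 entered through their KO mean alone. Of 6 β cell genes, 5 were lower in KO, with KO to FL ratios of 0.704 for Nkx6-1, 0.615 for Slc2a2 and 0.665 for Ucn3. When each library was scaled to its endothelial markers, 17 of the 25 genes other than Il1b stayed above 0 (median 0.15), among them 13 of the 14 called higher. When scaled to the fibroblast and pericyte markers, only 1 of the 25 (Lyz2) stayed above 0 (median −0.23). Il1b was lower under either scaling (−2.15 and −2.53). The scaled differences are in log2 FPKM without the added 1. They are therefore not on the scale of the −1.63 of Il1b and the median of 0.36 given for the unscaled libraries. The part of these cell types in the differences described here was not tested.

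**Figure D4:**
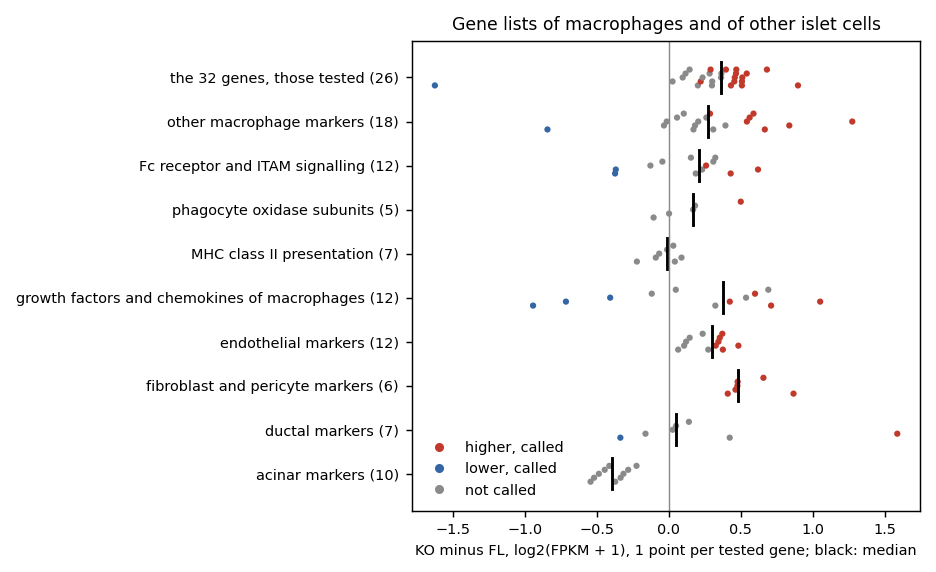
Differences between KO and FL islets for tested genes of each list (log2(FPKM + 1), 1 point per gene; red, higher; blue, lower; grey, not called; black line, median; number of tested genes in brackets). The median of the 26 genes, 0.36, lies between those of the endothelial list, 0.30, and the fibroblast and pericyte list, 0.48, while the MHC class II list lies near 0.

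Within each group, single mice were high or low for many of the genes at once. FL4 had the highest sum of the 32 genes among FL mice, and 21 of the 26 tested genes were above the group mean there. It was the highest FL mouse for 10 of them, including Csf1r, Spi1, Adgre1, Tyrobp, Lyz2, Cd74, Ctss and Mpeg1, and the lowest for C1qb, Ms4a7 and Il1b. FL5 was the lowest FL mouse for 10 genes, including Csf1r, Cx3cr1, Fcer1g, Cd74 and Ctss, and the highest for C1qa, Lgals3 and Il1b. The median deviation from the group mean in FL4 was 0.11 over the 26 genes and 0.02 over all tested genes, and in FL5 it was −0.12 and 0.0029. FL2 was above the group mean for 8 genes, with median deviations of −0.097 and −0.013. Among KO mice, KO2 was above the group mean for 20 genes, but its median deviation was larger over all tested genes (0.047) than over the 26 (0.023), so this count does not set the 26 genes apart. KO1 and KO4 were each above the group mean for 9 genes, and KO5 for 17. Over the 26 genes and over all tested genes, the median deviation was −0.067 and 0.0038 in KO1, −0.057 and −0.022 in KO4, and 0.024 and −0.058 in KO5.

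**Figure D5:**
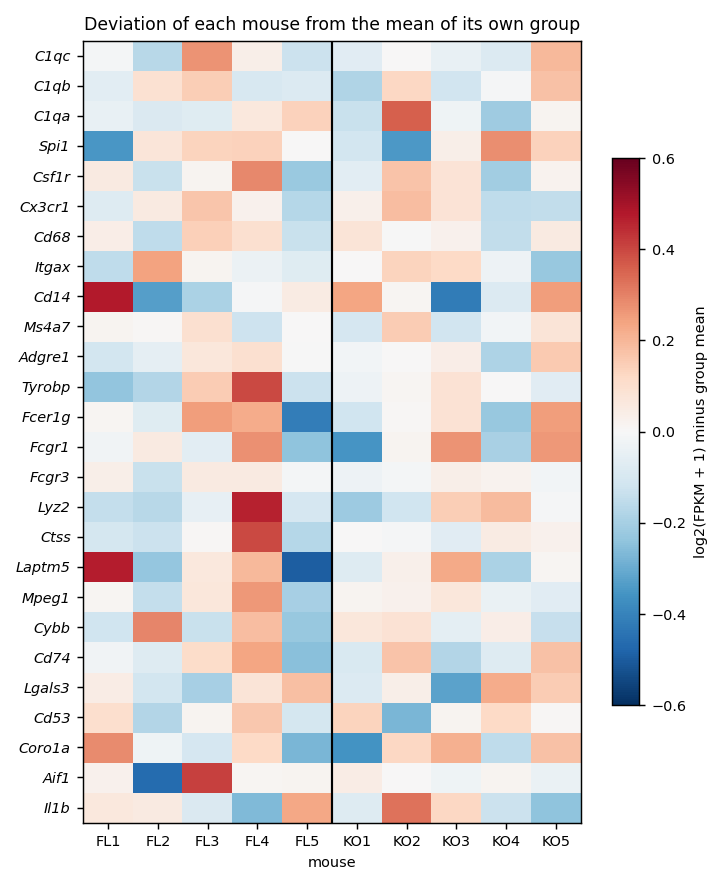
Deviation of each mouse from the mean of its own group for the 26 tested genes, on the log2(FPKM + 1) scale (red, above; blue, below; the black line separates FL from KO). FL4 is above its group mean for 21 genes and FL5 for 7.

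After each group was centred on its mean, the correlation between 2 of the genes over the 10 mice had a median of 0.158 over 325 pairs, and 66.8% of pairs were above 0, against a median of 0.0600 over all pairs of tested genes. These correlations share the libraries and are given as a description. Il1b had a median correlation of −0.221 with the other 25 genes, the lowest of all, and Csf1r the highest at 0.447. Of 7 pairs of functionally linked genes that were tested over 10 mice with an exact permutation within groups (14400 orders), only Cd74 and Ctss had an unadjusted p under 0.05 (Pearson r = 0.693, p = 0.0187, adjusted p = 0.131; Spearman ρ = 0.685, p = 0.0344, adjusted p = 0.241), so no pair passed the correction. Without FL4 and KO5, the mice farthest from the median of the group-centred Cd74 values, r was 0.541. C1qb and C1qc gave r = 0.550 (exact permutation p = 0.103; ρ = 0.418, p = 0.210), which became −0.164 without FL3 and KO5, so that it rested on these mice. Fcer1g and Tyrobp gave r = 0.512 (exact permutation p = 0.245; ρ = 0.406, p = 0.284), and Csf1r and Adgre1 gave r = 0.525 (exact permutation p = 0.123; ρ = 0.527, p = 0.143). For C1qa with C1qb, C1qa with C1qc and Cd68 with Lyz2, r was 0.236, 0.0555 and 0.145 (exact permutation p = 0.649, 0.871 and 0.820), and ρ was 0.115, 0.321 and 0.164 (p = 0.787, 0.346 and 0.682). Adjusted over the 7 pairs, these 6 had p from 0.287 to 0.871 for r and from 0.484 to 0.787 for ρ (exact permutation, Benjamini-Hochberg). Without the mice farthest from the median of the first gene on the same scale, r was 0.629 for Fcer1g and Tyrobp, 0.524 for Csf1r and Adgre1, −0.0675 for C1qa and C1qb, −0.0596 for C1qa and C1qc, and 0.270 for Cd68 and Lyz2.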

How the data were processed

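Islets of 5 FL and 5 KO male mice were measured with 1 library per mouse. The authors sequenced stranded, single-end reads of 75 nt, and the submitters' processing notes name STAR 2.5.2a, Cuffnorm 2.2.1 and mm10. The deposited values are FPKM per gene, normalized by the authors across libraries, with all columns assigned to mice. Read numbers are not part of the table; reads per gene and relative depth were estimated from the spacing of low FPKM over 3661 genes, with exon lengths of GENCODE M21, whose versioned identifiers match 23 of the 32 genes. No counting interval was computed.

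The 32 genes and the other lists were chosen with earlier results of these data known. Genes named from other lists are those with the 3 smallest adjusted p among called genes and the 1 with the highest mean FPKM, and further genes were named after their values were seen. Differences in log2(FPKM + 1) were tested in R 4.3.3 by limma 3.58.1 (lmFit, eBayes with trend) without covariates, for genes averaging 1 FPKM or more in either group, adjusted over all 13065 tested genes by the Benjamini-Hochberg method. The procedure was tested on simulated data. Genes below the filter were compared by an exact two-sided permutation test of the difference in mean log2(FPKM + 1) over 252 splits. Alternatives were a pseudocount of 0.1, no filter or a filter at 0.3 FPKM, median-ratio rescaling, quantile normalization, rescaling to the same sum, no trend, sample weights, the replicate number as a block and leaving out each mouse. Scaling to endothelial or to fibroblast and pericyte markers was added after the data had been seen, and its differences are in log2 FPKM without a pseudocount. Tables were made with Python 3.11.15, pandas 2.3.3 and scipy 1.17.1.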

Additional observations from a re-analysis of the deposited data

Results flagged for a closer look

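In 4 of the 64 groups of 5 mice examined (32 genes in FL and in KO), 1 mouse lay far from the others by Dixon's test, where chance gives about 1 in 20 groups, or 3.2. Lyz2 was at 35.2 FPKM in FL4 and at 22.5 to 24.4 FPKM in the other FL mice. Ctss was at 35.1 FPKM in the same mouse, FL4, and at 23.4 to 26.6 FPKM in the other FL mice. C1qc was at 15.9 FPKM in KO5 and at 13.0 to 13.8 FPKM in the other KO mice. Itgam was at 0.653 FPKM in FL3 and at 0.160 to 0.284 FPKM in the other FL mice, with an estimated 27 to 130 reads per library over all 10 libraries.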

How the results depend on the processing

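Over the 19 alternatives listed under the processing, 11 of the 15 called genes kept their call in every one (C1qb, C1qc, Cd68, Fcgr3, Tyrobp, Lyz2, Ctss, Mpeg1, Cd53, Lgals3 and Il1b), and 0 of the 15 changed sign. The number of the 32 genes called higher ranged from 10 to 16, and from 11 to 14 when 1 mouse was left out. The median difference of the tested genes was 0.47 with a pseudocount of 0.1, against 0.36. Cx3cr1, which was not called, turned to −0.067 after quantile normalization and to −0.018 without FL5, and ranged up to 0.066 without FL3. Without KO2 it fell below the filter and was not tested, so it has 18 alternatives. Of all called genes, 35.5% were higher, and 51.3% after median-ratio rescaling, 46.7% after quantile normalization and 47.6% after rescaling to the same sum.

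Replicate numbers did not pair the mice: deviations of same-numbered FL and KO mice correlated at −0.102 to 0.00305, and 0 of 5 matched best with their own number. With the replicate number as a block, 10 of the 32 genes were called higher instead of 14 (Ms4a7, Fcer1g, Laptm5 and Coro1a lost their call, with limma adjusted p of 0.0762, 0.0792, 0.0706 and 0.138), and of all genes 1494 were lower and 874 higher.

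Scaled to endothelial markers, an alternative added after the data had been seen, Ms4a7 turned to −0.086. Scaled to fibroblast and pericyte markers, likewise added, the difference was −0.26 for C1qb, −0.16 for C1qc, −0.0093 for Cd68, −0.47 for Ms4a7, −0.28 for Fcgr3, −0.22 for Fcer1g, −0.14 for Tyrobp, −0.19 for Ctss, −0.22 for Mpeg1, −0.13 for Laptm5, −0.046 for Cd53, −0.23 for Coro1a and −0.23 for Lgals3. These values have no test. Depth limits Ccr2, Mrc1, Itgam, Cd86 and Tnf, which rest on an estimated 130 reads or fewer per library.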
